A study of Mus musculus with 8 samples.

Results

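Germline and meiosis genes were followed as a set of 42 genes, taken by symbol from a list of germ-cell genes, many of which are silenced in somatic cells by methylation of their promoters. All 42 symbols were among the 23234 genes listed in every library. Transcripts were measured by RNA-seq in pools of whole mouse embryos, in 8 libraries that form 4 groups of 2. Wild-type embryos came from oocytes of f/f females, which are homozygous for a floxed Tet3 allele, and whether those females carried Cre is not stated. Tet3-null embryos came from oocytes of females with a floxed and a deleted Tet3 allele (f/-) and Zp3-Cre, a transgene whose promoter is active in growing oocytes. All females were superovulated, and all mature oocytes were inseminated in vitro with CAST/EiJ sperm, so that every embryo also carried a Tet3 allele from the sperm. Embryos were grown in KSOM and taken as pools of 10 at the 2-cell stage, 30 h after fertilization, or as blastocysts in pools of 7, at 96 h. Whether replicate libraries had separate females or collections as their source is not stated, and each p-value therefore reflects the spread of these samples alone, possibly a technical one.

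Meiosis pairs and recombines homologous chromosomes along a protein axis that is joined by the synaptonemal complex, and specialised cohesins hold the sister chromatids together. Germ cells of mammals also use the piRNA pathway, in which Piwi proteins loaded with small RNAs silence transposons, often in cytoplasmic granules called nuage. Growing oocytes transcribe many of these genes and store part of the RNA, which the early embryo inherits and degrades while it starts its own transcription, and several germ-cell promoters gain methylation as the embryo implants. Tet3 is an enzyme that oxidizes methylated cytosines of the zygote.

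Levels are FPKM, fragment counts divided by the length of the gene and by the number mapped in the library. Read totals are unknown. The libraries had 10607 to 11660 genes at 1 FPKM or more, and relative depths estimated from the lowest values lay between 1 and 1.31 times that of the first wild-type library of each stage. The 2-cell Tet3-null replicate 2 stood apart. Across all tested genes it correlated less with wild-type replicates 1 and 2 (0.931 and 0.926) than Tet3-null replicate 1 did (0.956 and 0.958), and it had the most genes listed at 0 (7101, against 5370 to 6080 elsewhere). Marker lists followed the labelled stages. The 12 markers of 2-cell embryos summed to 2027 to 2698 FPKM in 2-cell libraries and 91.8 to 103 FPKM in blastocyst libraries. The 12 blastocyst markers summed to 196 to 227 FPKM in 2-cell libraries and 3062 to 4817 FPKM in blastocyst libraries. Tet3, the targeted gene, was at 10.8 and 7.54 FPKM in wild-type and 3.28 and 4.41 FPKM in Tet3-null 2-cell libraries, without overlap. Its difference was -1.06 on the log2(FPKM + 1) scale (SE 0.25, limma adjusted p = 0.0690), and the deposited gene-level value does not separate intact from Cre-deleted transcripts. In blastocysts Tet3 was between 0.412 and 0.957 FPKM in all 4 libraries.

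Most of the set was detected. Of the 42 genes, 36 reached 1 FPKM in both wild-type 2-cell libraries, 18 reached 10 FPKM and 4 reached 100 FPKM in both. In wild-type blastocysts 26 reached 1 FPKM, 15 reached 10 FPKM and 3 reached 100 FPKM in both libraries. A total of 21 genes had at least 1 FPKM in all 8 libraries. Spo11, the enzyme that makes the double-strand breaks of meiosis, was listed at 0 in 7 libraries and at 0.253 FPKM in blastocyst Tet3-null replicate 2. Piwil4, the Piwi protein that enters the nucleus of male germ cells, was below 0.1 FPKM in every library except blastocyst Tet3-null replicate 1, at 0.438 FPKM. These 2 genes did not pass the filter for testing, which required 1 FPKM in at least 2 libraries, and the other 40 did.

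A few genes held most of the RNA of the set. The 42 genes summed to 1941 and 2049 FPKM in wild-type 2-cell libraries, 1873 and 2469 FPKM in Tet3-null 2-cell libraries, 765 and 795 FPKM in wild-type blastocysts, and 695 and 802 FPKM in Tet3-null blastocysts. Sycp3, Syce2 and Brdt together made up 65.8% to 72.1% of that sum in 2-cell libraries and 37.1% to 42.6% in blastocyst libraries. Without these 3 genes the sums were 640 to 693 FPKM at the 2-cell stage and 426 to 501 FPKM at the blastocyst stage. In wild-type 2-cell embryos the order of mean levels was Sycp3, Brdt, Syce2, Tex19.1, Tex12, Sycp1, Tex11 and Hormad1, and none of these 8 overlapped the next in its 2 libraries. In wild-type blastocysts the order was Syce2, Sycp3, Fkbp6, Tex19.1, Sycp1, Dpep3, Hormad1 and Tex12, in which Sycp3 and Fkbp6 overlapped each other, as did Hormad1 and Tex12.

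**Figure D1:**
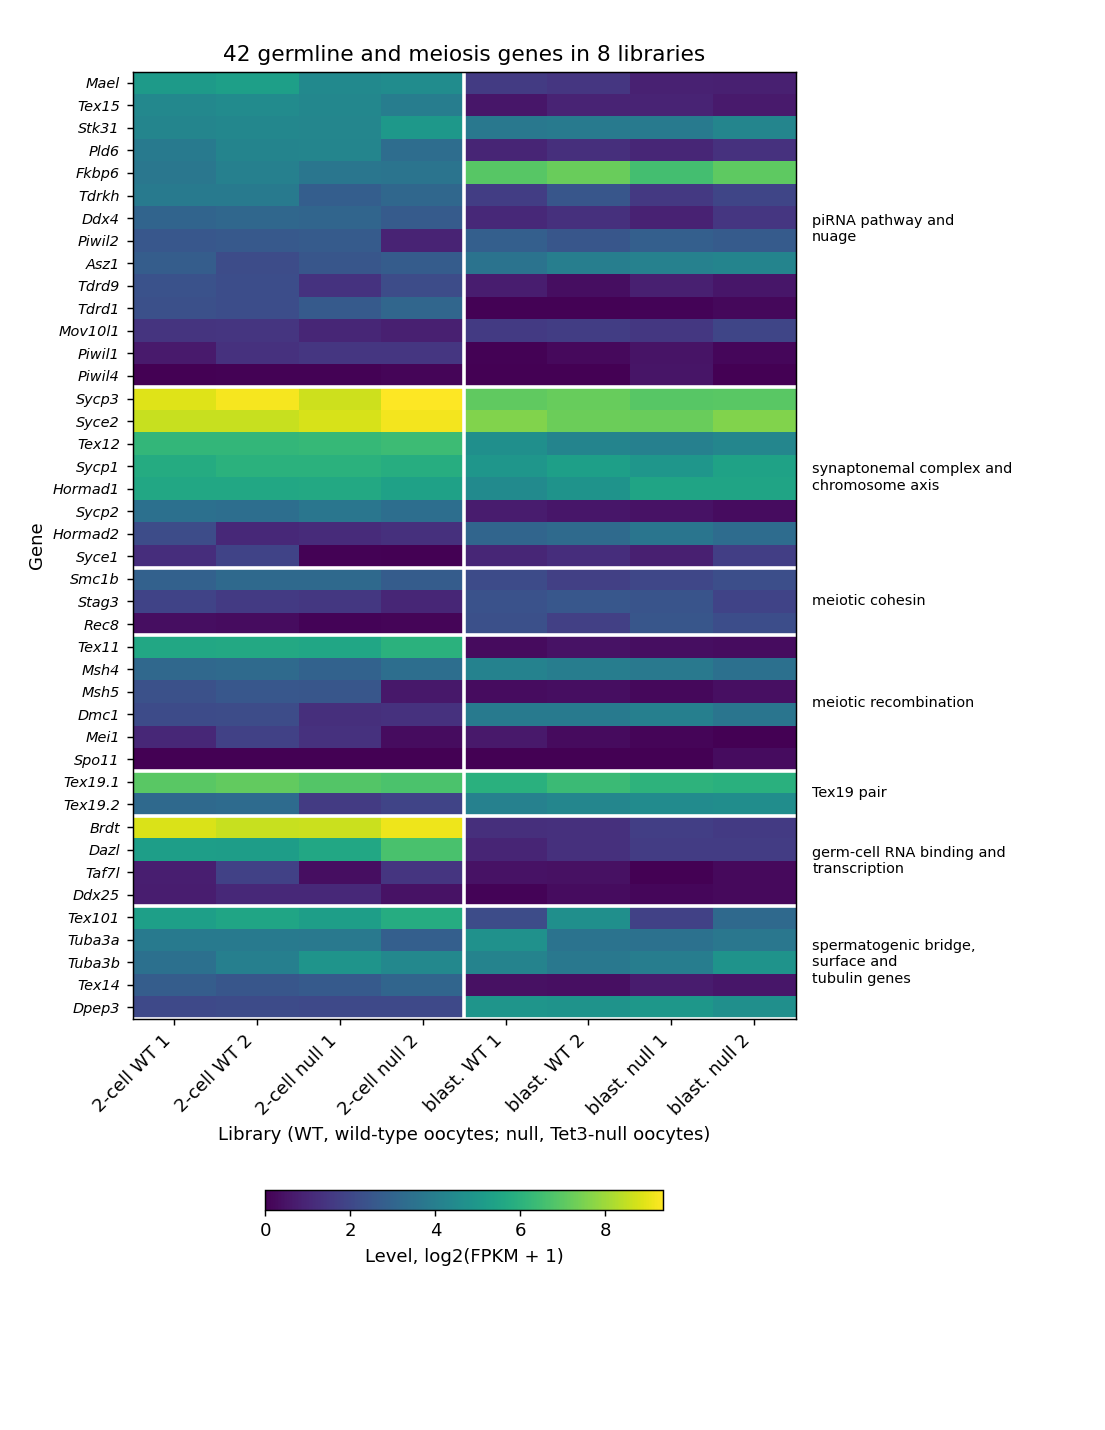
Level of each of the 42 genes in each of the 8 libraries, as log2(FPKM + 1) by colour, with genes grouped by role and libraries in columns. The brightest cells are Sycp3, Syce2 and Brdt in the 2-cell libraries, Brdt is at 1.42 to 2.35 FPKM in blastocysts, and Fkbp6 is brighter in all 4 blastocyst libraries than in all 4 2-cell libraries.

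The 250 bases upstream of the start of transcription were read from RefSeq promoter sequences of the mouse build GRCm38.p6, which hold a window for 38 of the 42 genes (not for Spo11, Piwil2, Tex11 and Tex15). The deposited levels were made on mm9, so these coordinates describe the gene models and not the reads. For genes with more than 1 window, among them Fkbp6, Hormad1 and Tdrd1, only the first listed was read, and the counts depend on that choice. The E-box CACGTG, which reads the same on both strands, was in 15 of the 38 windows (39.5%), against 6.90% of the windows of 15675 listed genes and 8.24% of those of 9466 tested genes. The E2F6-type motif TCCCGC, searched on both strands as TCCCGC or GCGGGA, was also in 15 windows (39.5%), against 22.1% of listed and 28.4% of tested genes. Both motifs were in the windows of 5 genes (13.2%), Ddx4, Hormad1, Mael, Sycp3 and Tex12, against 2.06% of listed and 2.62% of tested genes. A match says only that the letters are there. The windows held a median of 15 CpG dinucleotides, ranging from 2 in Tex19.2 to 34, and the medians over listed and tested genes were 10 and 15.

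Windows of 3 genes with the E-box are shown because these genes moved far, and in different directions, between the stages. Brdt and Mael were lower and Fkbp6 was higher in blastocysts, as given with the stage comparison. The coordinates are chr5:107330944-107331193 on the plus strand for Brdt, chr1:166238745-166238994 on the minus strand for Mael and chr5:135350045-135350294 on the minus strand for Fkbp6. Each is written 5′ to 3′ in the direction of the gene, and capitals mark CACGTG.
Brdt: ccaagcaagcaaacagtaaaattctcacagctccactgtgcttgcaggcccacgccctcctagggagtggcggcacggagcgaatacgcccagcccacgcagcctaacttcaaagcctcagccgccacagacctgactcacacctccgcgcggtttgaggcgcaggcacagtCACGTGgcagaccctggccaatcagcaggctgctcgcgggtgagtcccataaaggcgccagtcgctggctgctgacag
Mael: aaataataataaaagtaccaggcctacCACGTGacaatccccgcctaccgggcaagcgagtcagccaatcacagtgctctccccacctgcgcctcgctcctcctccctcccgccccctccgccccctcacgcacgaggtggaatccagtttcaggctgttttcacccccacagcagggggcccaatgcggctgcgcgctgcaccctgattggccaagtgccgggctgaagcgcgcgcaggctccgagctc
Fkbp6: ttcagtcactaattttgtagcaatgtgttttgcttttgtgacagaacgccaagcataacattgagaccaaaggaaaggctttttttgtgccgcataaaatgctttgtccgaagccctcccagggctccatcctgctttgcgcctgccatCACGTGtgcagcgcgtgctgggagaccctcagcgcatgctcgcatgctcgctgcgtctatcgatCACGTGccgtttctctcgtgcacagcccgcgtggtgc
Brdt and Mael each hold 1 E-box and Fkbp6 holds 2, with 16, 18 and 17 CpGs. Fkbp6 has 2 windows in the source, and the first is the one shown.

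The comparison of Tet3-null with wild-type 2-cell embryos asks what changed in this set when Tet3 was removed from the oocyte. Of the 40 tested genes, 1 was called, Tex19.2, which was lower in Tet3-null embryos, and none was called higher. Over all 13549 tested genes 2.72% were called, 0.613% higher and 2.10% lower, so that the share among the germline genes was near the background. Calls are genes with an adjusted p under 0.05 in limma. The median difference over the 40 genes was -0.17 on the log2(FPKM + 1) scale and that over all tested genes was also -0.17. Rescaling by the median of ratios moved these medians to 0.03 and 0.01 and quantile normalization moved them to 0.01 and 0.00, and the calls over all genes went from 83 higher and 285 lower to 82 and 67 or to 94 and 104. At an unadjusted p under 0.05, 9 of the 40 genes (22.5%) differed, against 23.7% of all genes. In these pooled embryos fewer cells of a type and less RNA per cell cannot be told apart.

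Tex19.2 and Tex19.1 are neighbouring copies on the same chromosome, and Tex19.1 is known for holding transposons in check in germ cells and placenta. Tex19.2 was at 8.25 and 8.72 FPKM in the wild-type 2-cell libraries and at 2.11 and 2.74 FPKM in the Tet3-null ones. Both Tet3-null values lay well below both wild-type values, and the groups did not overlap. The mean fell from 8.48 ± 0.332 to 2.43 ± 0.445 FPKM (SD, n = 2), a level 3.49-fold lower. On the log2(FPKM + 1) scale Tex19.2 fell by 1.47 (SE 0.17, limma adjusted p = 0.0208). The call remained when Tet3-null replicate 1 was left out (adjusted p = 0.00496) and when replicate 2, the library that stood apart, was left out (0.0226). It was lost without wild-type replicate 1 (0.0793) or replicate 2 (0.112), without any one blastocyst library (0.0822 to 0.0841), and when the 4 2-cell libraries were fitted alone (0.319). Its log2 difference stayed between -1.77 and -1.25 in all these fits. The summed level of the 16 cumulus and granulosa cell markers was also lower in Tet3-null 2-cell libraries, 28.3 to 36.0 FPKM against 40.1 to 48.0, with 11 of the 16 below 1 FPKM in every library, among them Fshr, Foxl2, Cyp19a1 and Star, and with Amh listed at 0 in all. For the 12 markers of blood and other somatic cells the sums were 4.91 to 6.45 against 13.3 to 13.6 FPKM, with 8 of 12 below 1 FPKM in every library and Hbb-b1 at 0. Tnfaip6 held much of the first sum, at 29.5 and 19.0 FPKM in wild-type and 14.3 and 24.0 FPKM in Tet3-null 2-cell libraries, which overlap. Amhr2 (10.8 and 13.3 against 8.41 and 6.78 FPKM) did not overlap. Most of the second sum was Cd68 (4.82 and 5.82 against 2.00 and 2.08 FPKM, called lower) and Pecam1 (5.45 and 4.12 against 1.58 and 3.46 FPKM). Blastocysts held Cd68 too, at 15.2 to 21.3 FPKM, and Amhr2, at 6.19 to 9.79 FPKM. The part of these markers in the result was not tested.

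Tex19.1, the copy, was at 124 and 137 FPKM in wild-type and 115 and 102 FPKM in Tet3-null 2-cell libraries. The Tet3-null values were lower without overlap, but the difference of -0.26 (SE 0.18, limma adjusted p = 0.403) did not pass the test. How reads that match both copies were treated is not given in the sources used here, and how alike the 2 transcripts are was not measured. The 2 genes summed to 132 and 146 FPKM in wild-type and 117 and 105 FPKM in Tet3-null 2-cell libraries. Their upstream windows are shown because 1 copy was called and the other was not, although the difference between the copies was not tested. The window of Tex19.2 is chr11:121118678-121118927 on the minus strand and that of Tex19.1 is chr11:121145893-121146142 on the plus strand (GRCm38.p6), each written 5′ to 3′ with every CG in capitals.
Tex19.2: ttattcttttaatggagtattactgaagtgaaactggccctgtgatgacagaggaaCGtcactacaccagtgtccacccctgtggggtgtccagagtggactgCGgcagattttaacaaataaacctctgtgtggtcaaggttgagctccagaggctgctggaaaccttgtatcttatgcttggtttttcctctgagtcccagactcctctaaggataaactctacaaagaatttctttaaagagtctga
Tex19.1: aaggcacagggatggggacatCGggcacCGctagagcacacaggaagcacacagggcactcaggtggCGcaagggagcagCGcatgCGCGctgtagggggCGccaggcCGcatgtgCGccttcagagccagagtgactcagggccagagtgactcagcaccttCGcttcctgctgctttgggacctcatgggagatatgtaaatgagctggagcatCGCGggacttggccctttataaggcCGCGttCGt
Tex19.2 holds 2 CpGs in its window and Tex19.1 holds 15. Of 292 aligned columns 147 (50.3%) are identical and 84 are gaps. No other windows were aligned, so the identity has no background. Neither window holds CACGTG.

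Among genes of the synaptonemal complex and chromosome axis none of 8 was called in 2-cell embryos. Syce1, a protein of the central element that bridges paired chromosomes, was at 1.32 and 2.64 FPKM in wild-type, at 0.0333 FPKM in Tet3-null replicate 1 and listed at 0 in Tet3-null replicate 2. The groups did not overlap and the difference was -1.52 (SE 0.34, limma adjusted p = 0.0629). Syce1 passed the threshold with a pseudocount of 0.1 in place of 1 (-4.10, adjusted p = 0.0339) and when the first Tet3-null library was left out (0.0465), and in no other fit that tested it. Syce1 and Tex19.2 were the 2 genes of the set (5% of 40) with a difference of at least 1 and no overlap downward, against 4.78% of all tested genes. Upward there was none, against 1.21% of all genes. Syce2, another central element protein, was at 379 and 377 FPKM in wild-type and 444 and 576 FPKM in Tet3-null embryos, higher without overlap but not past the test (0.42, SE 0.20, adjusted p = 0.251). Tex12, its partner in the central element, was at 72.6 and 71.7 against 75.6 and 84.4 FPKM, with the same order of groups. Sycp3, which builds the axis itself, was at 474 and 596 against 398 and 653 FPKM, and the wild-type values lay inside the Tet3-null range. Sycp1, the filament protein that spans the complex, was at 53.5 and 62.6 against 61.1 and 56.5 FPKM, also overlapping. Hormad1, which marks chromosome axes that are not yet paired, was at 47.8 and 47.3 against 48.8 and 39.6 FPKM, and Hormad2, a related axis protein, at 3.48 and 1.11 against 1.20 and 1.49 FPKM, both overlapping. Sycp2, the partner of Sycp3, was between 9.42 and 11.8 FPKM in all 4 libraries.

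None of 5 tested recombination genes was called. Dmc1, the recombinase that pairs a broken strand with the homologous chromosome in meiosis, was at 3.44 and 3.56 FPKM in wild-type and 1.37 and 1.55 FPKM in Tet3-null 2-cell embryos. Both Tet3-null values were below both wild-type values, and the difference of -0.87 (SE 0.19, limma adjusted p = 0.0573) missed the threshold. Tex11, an X-linked factor for crossover formation, was at 48.3 and 49.2 against 45.2 and 62.0 FPKM, and the groups overlapped. Msh4 and Msh5 form a pair that stabilises crossover intermediates. Msh4 was between 6.75 and 9.29 FPKM in the 4 libraries. Msh5 was at 3.96 and 4.77 FPKM in wild-type and 4.64 FPKM in Tet3-null replicate 1, but at 0.504 FPKM in Tet3-null replicate 2. Mei1, which is needed for meiotic breaks, was between 0.232 and 2.47 FPKM, lowest in the same library. The 3 meiotic cohesin subunits were not called either. Smc1b was between 5.63 and 8.22 FPKM and Stag3 between 1.02 and 2.69 FPKM, both lowest in Tet3-null replicate 2. Rec8 was at 0.270 and 0.244 FPKM in wild-type and 0.0559 and 0.103 FPKM in Tet3-null embryos, too low to compare firmly.

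Of the piRNA and nuage genes 13 were tested and none was called in 2-cell embryos. The differences of 9 were negative, and the median over the 13 was -0.24. Mael, which acts in transposon silencing and in piRNA production, was at 33.2 and 38.1 FPKM in wild-type and 20.7 and 22.4 FPKM in Tet3-null embryos, a mean of 35.6 ± 3.45 against 21.5 ± 1.15 (SD, n = 2). The groups did not overlap, and the difference of -0.70 (SE 0.16, limma adjusted p = 0.0701) missed the threshold. The next 3 genes were singled out after the values were seen, because their unadjusted p was under 0.05. Tdrkh, a mitochondrial Tudor protein that recruits Piwi proteins, was at 13.1 and 13.2 FPKM in wild-type and 5.94 and 7.78 FPKM in Tet3-null embryos, without overlap (-0.86, SE 0.29, adjusted p = 0.143). Mov10l1, the helicase that feeds piRNA precursors to Piwi proteins, was at 1.68 and 1.75 against 0.983 and 0.771 FPKM (adjusted p = 0.174). Tdrd1, a Tudor scaffold of nuage, had the opposite order, at 3.82 and 3.68 against 5.31 and 7.41 FPKM (0.62, SE 0.19, adjusted p = 0.122). Tex15 and Fkbp6 were also named after the values were seen, for groups that did not overlap. Tex15, which helps to direct DNA methylation to transposons in male germ cells, was at 19.5 and 21.7 against 19.199 and 14.6 FPKM. Fkbp6, a co-chaperone of piRNA production, was at 11.91 and 15.7 against 11.85 and 11.01 FPKM. Both were lower in Tet3-null embryos, but their adjusted p were 0.465 and 0.535.

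The other 7 tested genes of the pathway overlapped between genotypes, except Piwil1 (0.48 on the log2 scale, limma adjusted p = 0.288) and Tdrd9 (-0.51, adjusted p = 0.333). Piwil2, the Piwi protein that makes the first piRNAs in fetal male germ cells, was at 4.87 and 5.11 FPKM in wild-type and 5.44 FPKM in Tet3-null replicate 1 but at 0.932 FPKM in Tet3-null replicate 2 (-0.76, SE 0.50, limma adjusted p = 0.386). Ddx4, the germ-cell RNA helicase, was between 5.48 and 7.66 FPKM, Pld6, a mitochondrial nuclease of piRNA production, between 9.07 and 18.2 FPKM, and both were lowest in that library. Stk31, a Tudor-domain kinase, was at 18.0 and 19.08 against 18.4 and 30.3 FPKM. Asz1, a mitochondrial scaffold of nuage, was between 3.53 and 5.74 FPKM. Piwil1, the Piwi protein of spermatids, was between 0.589 and 1.80 FPKM and Tdrd9, a helicase, between 1.59 and 4.10 FPKM.

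None of the 4 RNA-binding and transcription genes was called in 2-cell embryos. Dazl, which controls translation in germ cells and oocytes, had the largest positive difference of the 40 genes. It was at 36.5 and 35.9 FPKM in wild-type and 47.9 and 99.9 FPKM in Tet3-null embryos. The groups did not overlap and the mean was 2.04-fold higher, but the Tet3-null libraries differed from each other by more than the group means did (0.92, SE 0.32, limma adjusted p = 0.151). Brdt, a bromodomain protein of spermatocytes and spermatids, was at 447 and 383 against 390 and 550 FPKM, overlapping. Taf7l, a germ-cell subunit of the basal transcription machinery, was between 0.282 and 2.52 FPKM, and Ddx25, a helicase of spermatids, between 0.375 and 1.13 FPKM. The genes of intercellular bridges, the sperm surface and testis tubulin were not called. Dpep3, a dipeptidase on the surface of germ cells, was between 3.14 and 3.41 FPKM in all 4 libraries. Tex14, a component of the bridges between germ cells, was between 4.70 and 7.29 FPKM, and Tex101, a surface glycoprotein, between 37.0 and 54.3 FPKM. Tuba3b was at 10.1 and 15.3 against 27.4 and 19.6 FPKM, without overlap (0.85, SE 0.34, adjusted p = 0.196), while Tuba3a, a near copy, was at 13.2 and 13.3 against 12.8 and 6.09 FPKM. Summed over both tubulin copies the levels were 23.3 and 28.6 against 40.2 and 25.7 FPKM, which overlap.

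Over the whole set, 13 genes were lower without overlap in Tet3-null 2-cell embryos (32.5% of 40), against 34.9% of all tested genes. Higher without overlap were 6 genes (15%), against 12.6%. These shares lay near those of all genes. The 2-cell Tet3-null replicate 2 contributed much of the spread, as it was above the other 3 2-cell libraries in 12 of the 42 genes and below them in 17, against 7 and 11 for Tet3-null replicate 1. Such counts were not made over all genes, so whether they are particular to this set was not tested. Leaving out Tet3-null replicate 1 gave 8 calls, 6 lower (Dmc1, Mael, Msh5, Piwil2, Syce1 and Tex19.2) and 2 higher (Dazl and Tdrd1), in a fit that takes the lone library to vary like the other groups and that called 3438 genes in all. Leaving out Tet3-null replicate 2 left 1 call, Tex19.2, among 335 over all genes.

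**Figure D2:**
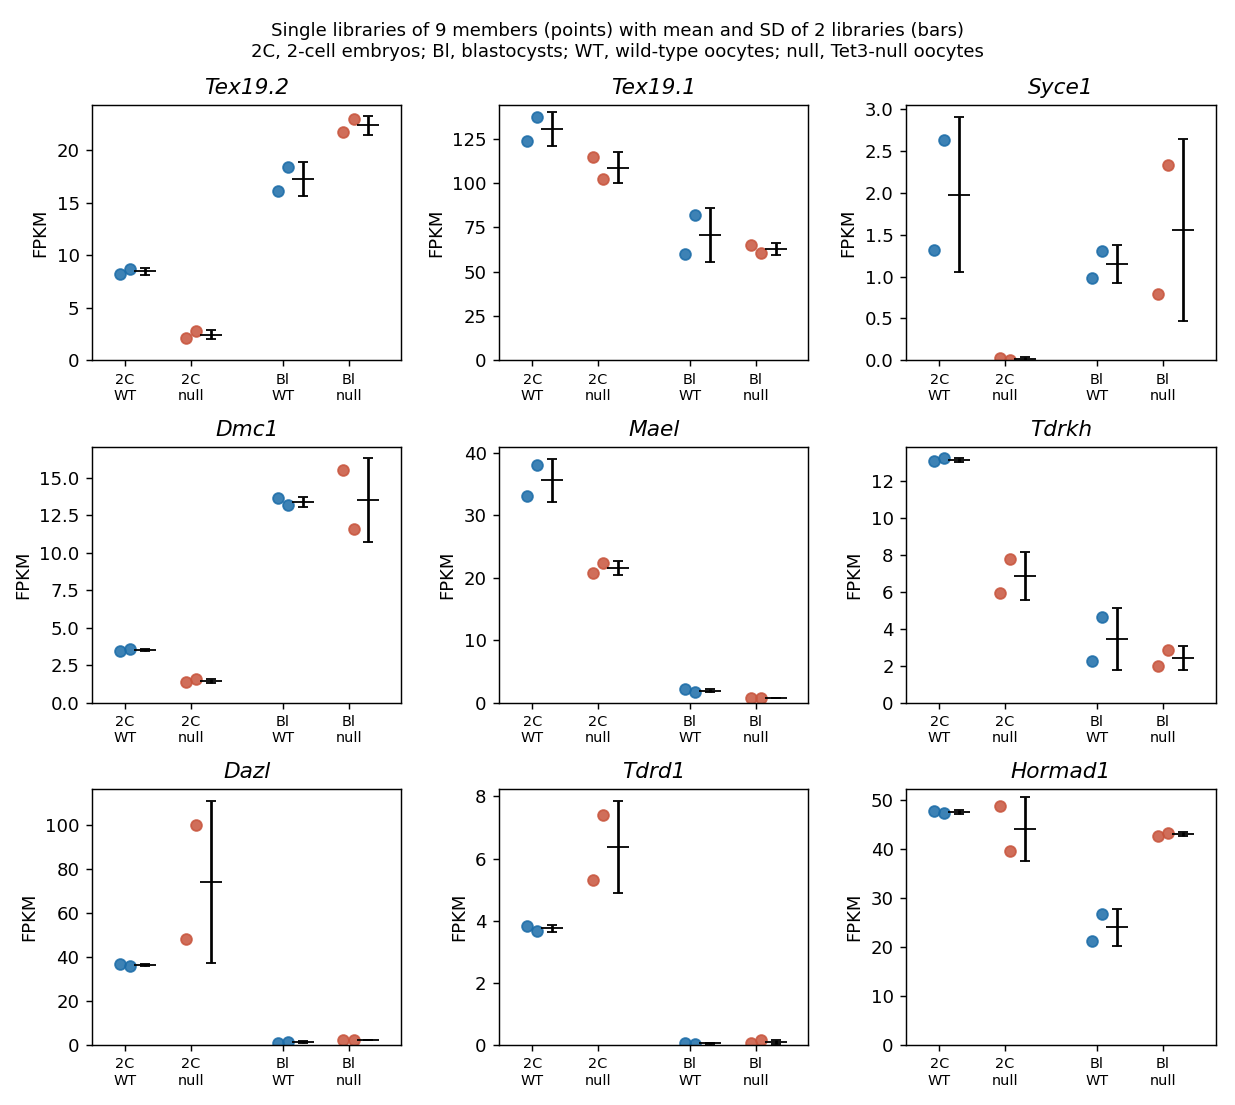
FPKM of 9 genes in single libraries (points) with the mean and SD of the 2 libraries (bars), by stage and genotype, each panel on its own axis from 0. Tex19.2, Dmc1, Mael, Tdrkh and Syce1 are lower in both Tet3-null 2-cell libraries than in both wild-type ones, Dazl and Tdrd1 are higher with wide spread, and Hormad1 differs in blastocysts; only the 2-cell difference of Tex19.2 passed the test.

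In blastocysts, 0 of the 40 genes were called between genotypes, against 0.0664% (9) of all 13549, 0.0148% higher and 0.0517% lower. At an unadjusted p under 0.05 in limma, 2 genes differed (5%, against 5.46% of all genes), Hormad1 and Mael. The median difference was 0.02 over the set and -0.02 over all genes, and 20 genes were positive and 20 negative. Higher without overlap were 9 genes (22.5%), against 19.0% of all genes, and lower without overlap were 6 (15%), against 25.3%. None differed by 1 or more without overlap, against 0.280% of all genes upward and 0.531% downward. Summed blastocyst markers were also lower in Tet3-null blastocysts, 3062 to 3295 FPKM against 4495 to 4817 for 12 markers, none of which was at 0 in all libraries. Most of the sum was Krt18, with means of 3052 and 2078 FPKM in wild-type and Tet3-null blastocysts, and Krt8, with 1018 and 549 FPKM. Nanog (123 and 141 FPKM), Gata6 (101 and 114 FPKM) and Sox2 (3.32 and 4.78 FPKM) had higher means in Tet3-null blastocysts. Values of Sox2 overlapped between genotypes. All other markers of the list had lower means, among them Gata3 (230 and 178 FPKM), Eomes (11.8 and 5.32 FPKM) and Gata4 (3.57 and 1.82 FPKM). None of the 11 markers tested was called, and their median difference was -0.20. Their part in the values that follow was not tested.

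Hormad1 was at 21.3 and 26.7 FPKM in wild-type and 42.7 and 43.4 FPKM in Tet3-null blastocysts. Both Tet3-null values were above both wild-type values, and the mean was 1.79-fold higher (0.83, SE 0.17, limma adjusted p = 0.450). Mael was at 2.10 and 1.76 FPKM in wild-type and 0.798 and 0.776 FPKM in Tet3-null blastocysts, again without overlap and in the same order as at the 2-cell stage (-0.71, SE 0.16, adjusted p = 0.514). Dazl was at 0.973 and 1.46 against 2.19 and 2.13 FPKM, higher without overlap as in 2-cell embryos but at a much lower level (0.52, SE 0.32, adjusted p = 1). Tex19.2 was at 16.1 and 18.4 against 21.7 and 23.0 FPKM, the reverse of its order in 2-cell embryos (0.36, SE 0.17, adjusted p = 0.986). Tex19.1 was at 60.0 and 81.7 against 65.2 and 60.3 FPKM, overlapping. Syce1, near 0 in Tet3-null 2-cell embryos, was at 0.989 and 1.31 against 0.789 and 2.33 FPKM, overlapping, and so was Dmc1 at 13.6 and 13.2 against 15.5 and 11.5 FPKM. Of all tested genes, 12.6% in 2-cell embryos and 19.0% in blastocysts were higher without overlap, and 34.9% and 25.3% were lower. The share of all genes without overlap at both stages was not counted, so the orders that follow have no background. In order of non-overlap across both stages, Dazl was higher at both, Mael was lower at both, and Tex19.2 was lower in 2-cell embryos and higher in blastocysts. Tdrd1 was higher at both too, but it passed the filter through 2-cell libraries alone, and in blastocysts it was near 0, at 0.0448 and 0.0397 against 0.0530 and 0.145 FPKM (0.08, SE 0.19, limma adjusted p = 1).

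Whether the genotype difference itself changed between stages was tested as an interaction in the same fit. No gene of the set was called, against 0.140% (19) of all genes, 0.0517% higher and 0.0886% lower, and 4 genes (10%) had an unadjusted p under 0.05 in limma, against 14.4%. They were Tex19.2, Syce1, Hormad1 and Dmc1. Tex19.2 had the largest interaction, 1.83 (SE 0.24, adjusted p = 0.0572), with a genotype difference of -1.47 in 2-cell embryos and 0.36 in blastocysts. It was called in 1 of 6 other fits, that with a filter of 5 FPKM (adjusted p = 0.0431), and in 2 of 8 that left out a library, Tet3-null 2-cell replicate 1 (0.0117) or replicate 2 (0.0432), and its adjusted p reached 0.403 over these fits. Values for Syce1 were 1.70 (SE 0.48, adjusted p = 0.207), for Hormad1 0.94 (SE 0.24, 0.194) and for Dmc1 0.87 (SE 0.26, 0.234). For none of the 4 genes did the fit to all libraries call a difference between the stages in the effect of genotype.

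**Figure D3:**
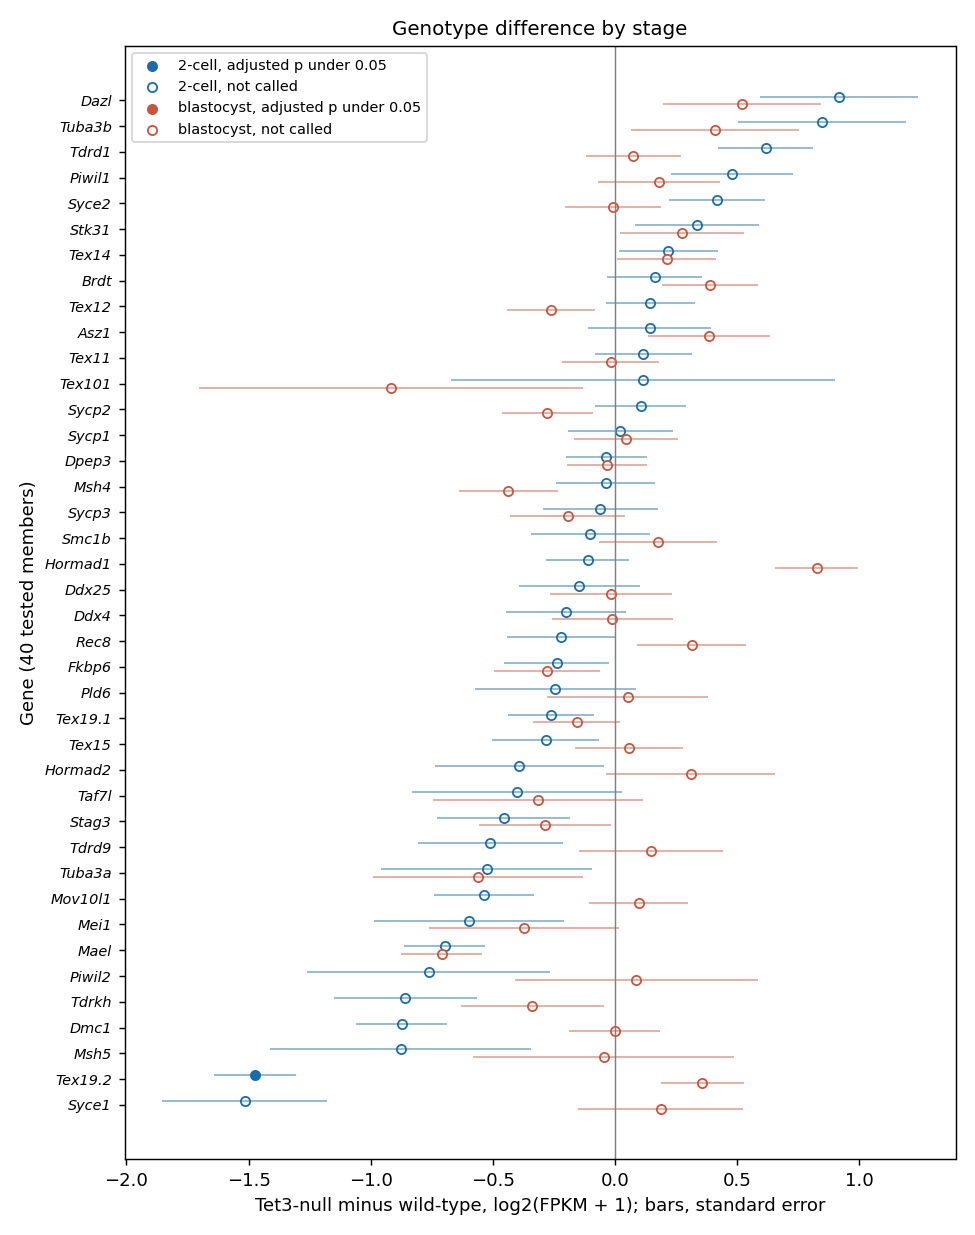
Difference between Tet3-null and wild-type embryos in 2-cell embryos (blue) and blastocysts (red) for the 40 tested genes, on the log2(FPKM + 1) scale with standard errors from limma, ordered by the 2-cell difference. Filled points have an adjusted p under 0.05, and Tex19.2 in 2-cell embryos, at -1.47, is the only one.

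The stage comparison asks which of these transcripts were lower or higher in blastocysts than in 2-cell embryos. In wild-type embryos 31 of the 40 tested genes were called, 22 lower (55%) and 9 higher (22.5%) in blastocysts. Over all tested genes 74.3% were called, 38.4% lower and 35.8% higher. The median over the set was -0.92 on the log2(FPKM + 1) scale, against -0.08 over all genes. The filter was passed only through 2-cell libraries by 11 genes, Ddx25, Mei1, Msh5, Piwil1, Sycp2, Taf7l, Tdrd1, Tdrd9, Tex11, Tex14 and Tex15. Rec8 passed it only through blastocyst libraries. The filter favours a stage difference in these genes, so these counts and medians, and the stage p-values of these genes, describe the tested genes only. Of the 11 genes, 9 were called lower in wild-type and 7 in Tet3-null blastocysts. Of the 28 genes that reached 1 FPKM in a library of each stage, 13 were lower (46.4%) and 8 were higher (28.6%), against 32.0% and 37.3% of the 9985 genes of that kind. The median was -0.65 over the 28 and 0.11 over the 9985. In Tet3-null embryos 30 were called, 20 lower (50%) and 10 higher (25%), against 35.1% lower and 38.9% higher (74.0% in all) of all genes, with medians of -0.78 and 0.09. The 12 oocyte markers summed to 397 to 578 FPKM in 2-cell libraries and 39.9 to 46.3 FPKM in blastocyst libraries, and 11 of the 12 were lower in wild-type blastocysts, in the same direction as the larger group. The part of maternal RNA in the result was not tested.

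**Figure D4:**
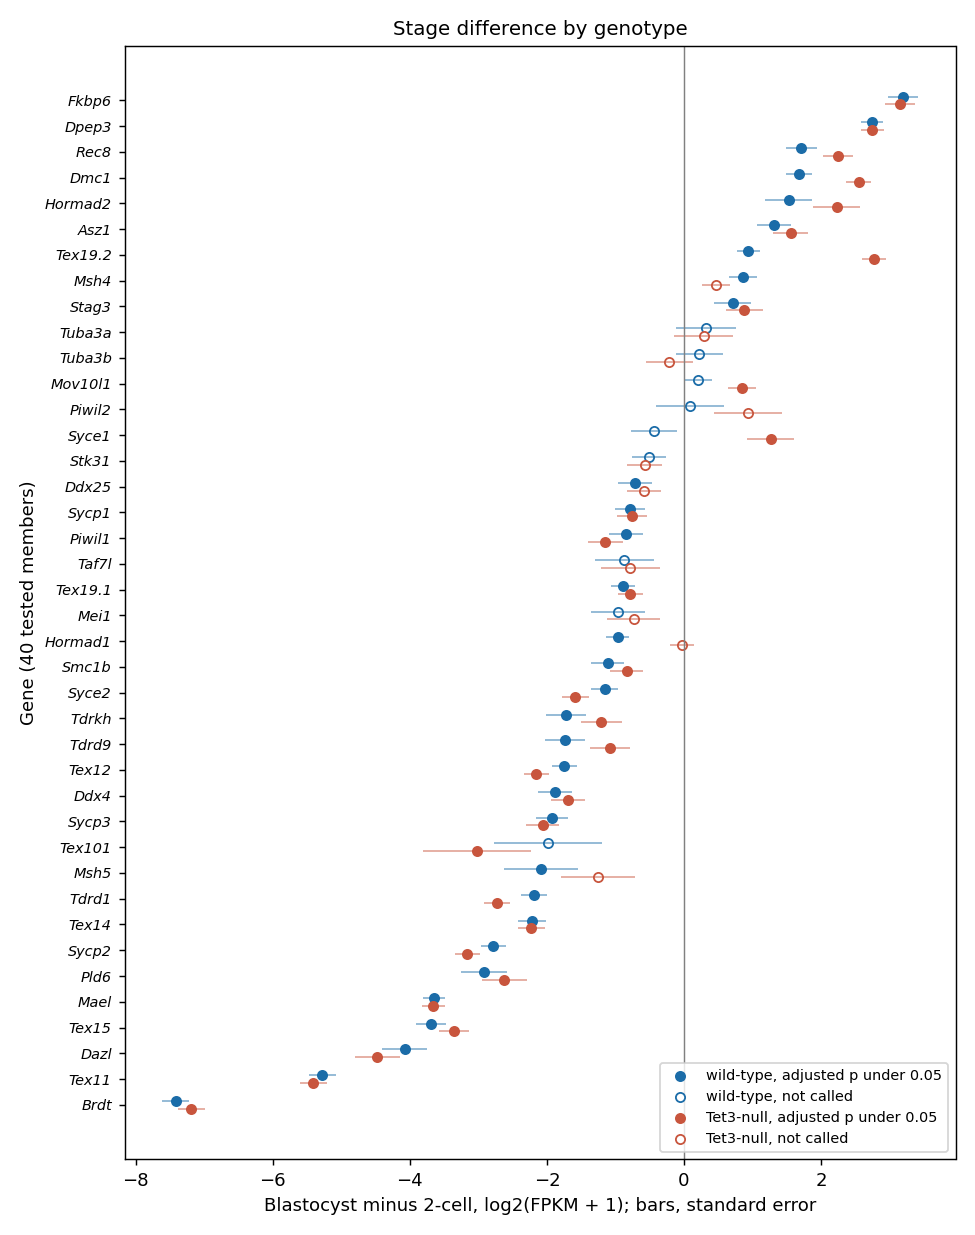
Difference between blastocysts and 2-cell embryos in wild-type (blue) and Tet3-null (red) embryos for the 40 tested genes, on the log2(FPKM + 1) scale with standard errors from limma, ordered by the wild-type difference. Brdt, Tex11 and Dazl lie farthest to the left, Fkbp6 and Dpep3 farthest to the right in wild-type, and the genotypes lie farthest apart for Tex19.2 and Syce1.

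Among the germ-cell transcription and RNA-binding genes, Brdt had the largest fall. It went from 447 and 383 FPKM in wild-type 2-cell embryos to 1.42 and 1.44 FPKM in wild-type blastocysts, and from 390 and 550 to 2.35 and 2.02 FPKM in Tet3-null embryos. All 4 2-cell libraries were far above all 4 blastocyst libraries. The wild-type mean fell from 415 ± 45.1 to 1.43 ± 0.0143 FPKM (SD, n = 2), a level 291-fold lower. On the log2 scale Brdt fell by 7.42 in wild-type (SE 0.20, limma adjusted p = 3.93e-07). Dazl fell by 4.08 in wild-type (SE 0.32, adjusted p = 2.88e-05) and fell by 4.47 in Tet3-null embryos, from the 2-cell to the blastocyst values given above. Ddx25 fell in wild-type (adjusted p = 0.0341) from an already low level, a change of -0.71 whose call was lost without any one blastocyst library (0.0552 to 0.153), with the replicate block (0.0521) and with quantile normalization, where the change was -0.30 (0.312). Taf7l was not called. Ddx25 and Taf7l passed the filter through 2-cell libraries alone.

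Among recombination genes Tex11 and Dmc1 moved in opposite directions. Tex11 went from 48.3 and 49.2 FPKM to 0.197 and 0.374 FPKM in wild-type and from 45.2 and 62.0 to 0.279 and 0.255 FPKM in Tet3-null embryos. It fell by 5.28 in wild-type (SE 0.20, limma adjusted p = 1.36e-06), and no library of one stage approached those of the other. Tex11 passed the filter through 2-cell libraries alone, so its separation is tied to the filter. Dmc1 rose from 3.44 and 3.56 FPKM to 13.6 and 13.2 FPKM in wild-type, 3.83-fold (1.68, SE 0.19, adjusted p = 0.000148), and from 1.37 and 1.55 to 15.5 and 11.5 FPKM in Tet3-null embryos (2.55). Msh4 and Msh5, which work as a pair, also went apart. Msh4 rose from 7.96 and 8.38 to 16.6 and 14.8 FPKM in wild-type (adjusted p = 0.00657), while Msh5 fell from 3.96 and 4.77 to 0.242 and 0.283 FPKM (adjusted p = 0.00947, and 0.0516 without wild-type 2-cell replicate 2). In Tet3-null embryos neither was called (adjusted p = 0.0740 and 0.0675), and their interaction terms did not pass the test. Msh5 passed the filter through 2-cell libraries alone, so its fall is tied to the filter.

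The 13 tested piRNA and nuage genes included 8 that fell and 2 that rose in wild-type, where 38.4% of all tested genes were lower and 35.8% higher. Of the 8, Piwil1, Tdrd1, Tdrd9 and Tex15 passed the filter through 2-cell libraries alone. The same 2 and Mov10l1 rose and 8 fell in Tet3-null embryos, where 35.1% of all tested genes were lower and 38.9% higher. The rise of Mov10l1, by 0.84 (SE 0.20, limma adjusted p = 0.00720), was not called without blastocyst Tet3-null replicate 2 (0.0565). Mael went from 33.2 and 38.1 to 2.10 and 1.76 FPKM in wild-type, 18.5-fold lower (-3.64, SE 0.16, limma adjusted p = 2.72e-06), and from 20.7 and 22.4 to 0.798 and 0.776 FPKM in Tet3-null embryos. Tex15 went from 19.5 and 21.7 to 0.470 and 0.891 FPKM in wild-type (-3.69, SE 0.22, adjusted p = 8.38e-06) and from 19.199 and 14.6 to 0.890 and 0.595 FPKM in Tet3-null embryos. Both genes were separated between the stages in every library, but Tex15 passed the filter through 2-cell libraries alone. Tdrd1 was at or below 0.145 FPKM in all blastocyst libraries, and Pld6 fell by 2.92 in wild-type to 0.973 and 1.41 FPKM. Ddx4 fell by 1.88, to 1.09 and 1.49 FPKM. Fkbp6 went the other way, from 11.91 and 15.7 to 122 and 146 FPKM in wild-type and from 11.85 and 11.01 to 92.9 and 130 FPKM in Tet3-null embryos. Its wild-type mean rose 9.71-fold from 13.8 ± 2.65 to 134 ± 17.5 FPKM (SD, n = 2; 3.20, SE 0.22, adjusted p = 1.42e-05), the largest rise in the set on the log2(FPKM + 1) scale. Asz1 rose by 1.31 in wild-type, to 10.7 and 15.1 FPKM (adjusted p = 0.00235). Piwil2 and Stk31 were not called in either genotype.

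Genes of the synaptonemal complex and axis mostly fell, but Sycp3 and Syce2 stayed above 100 FPKM in every library. Sycp3 went from 474 and 596 to 134 and 144 FPKM in wild-type and from 398 and 653 to 119 and 124 FPKM in Tet3-null embryos (wild-type -1.93, SE 0.24, limma adjusted p = 0.000246). Of the exon bases of Sycp3, 52.2% overlap exons of Chpt1 on the other strand in the GENCODE M21 annotation, and the libraries do not mark strand. Chpt1 itself was at 16.0 to 29.7 FPKM in all libraries, well below Sycp3. Syce2 went from 379 and 377 to 190 and 150 FPKM in wild-type and from 444 and 576 to 148 and 190 FPKM in Tet3-null embryos (wild-type -1.16, SE 0.20, adjusted p = 0.00130). Tex12 went from 72.6 and 71.7 to 24.3 and 17.8 FPKM in wild-type and from 75.6 and 84.4 to 16.0 and 18.4 FPKM in Tet3-null embryos. Sycp1 was the least changed of those called, from 53.5 and 62.6 to 29.0 and 38.0 FPKM in wild-type and from 61.1 and 56.5 to 28.8 and 40.7 FPKM in Tet3-null embryos (wild-type -0.78, adjusted p = 0.0126, and 0.0731 without 2-cell replicate 2 or 0.0874 without blastocyst replicate 1). Sycp2, in contrast to its partner Sycp3, dropped below 1 FPKM in all 4 blastocyst libraries. Sycp2 passed the filter through 2-cell libraries alone, which ties its separation to the filter. Syce1 rose in Tet3-null embryos by 1.26 (SE 0.34, adjusted p = 0.0111, and 0.0648 without blastocyst replicate 2) from its values near 0 and was not called in wild-type (adjusted p = 0.268), and its interaction did not pass the test.

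The HORMA-domain proteins differed from each other. Hormad1 fell in wild-type from 47.8 and 47.3 to 21.3 and 26.7 FPKM (-0.97, SE 0.17, limma adjusted p = 0.00153). In Tet3-null embryos it was at 48.8 and 39.6 FPKM before and 42.7 and 43.4 FPKM after, a difference of -0.03 (SE 0.17, adjusted p = 0.882), and the interaction given above did not pass the test. Hormad2 rose from 3.48 and 1.11 to 7.38 and 8.37 FPKM in wild-type (1.53, SE 0.34, adjusted p = 0.00524) and from 1.20 and 1.49 to 11.3 and 8.81 FPKM in Tet3-null embryos (2.23). All 4 blastocyst libraries were above all 4 2-cell libraries for Hormad2.

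The meiotic cohesin subunits also split. Rec8, the subunit that closes the cohesin ring in meiosis, went from 0.270 and 0.244 to 3.92 and 2.45 FPKM in wild-type and from 0.0559 and 0.103 to 4.73 and 3.59 FPKM in Tet3-null embryos. It was below 0.3 FPKM in every 2-cell library and above 2 FPKM in every blastocyst library (wild-type 1.71, SE 0.22, limma adjusted p = 0.000341). Rec8 passed the filter through blastocyst libraries alone, so its separation is tied to the filter. Stag3 rose by 0.71 in wild-type, to 4.10 and 4.76 FPKM (adjusted p = 0.0464, lost without any one wild-type library, at 0.0635 to 0.1905), and Smc1b fell by 1.11, to 3.35 and 2.42 FPKM (adjusted p = 0.00438). The Tex19 copies also moved in opposite directions in wild-type embryos. Tex19.2 rose by 0.94 (SE 0.17, adjusted p = 0.00172) and Tex19.1 fell by 0.89 (SE 0.18, adjusted p = 0.00293). In Tet3-null embryos, from its lower start, Tex19.2 rose by 2.77, from 2.11 and 2.74 to 21.7 and 23.0 FPKM.

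In the remaining group Dpep3 rose from 3.17 and 3.41 to 28.4 and 27.1 FPKM in wild-type and from 3.22 and 3.14 to 30.1 and 24.4 FPKM in Tet3-null embryos. The rise was 8.43-fold in wild-type (2.74, SE 0.16, limma adjusted p = 8.58e-06) with no overlap of stages in either genotype. Tex14 fell by 2.22 to 0.350 and 0.320 FPKM, and it passed the filter through 2-cell libraries alone. Tex101 varied widely between blastocyst libraries, at 3.48 and 24.4 FPKM in wild-type and 2.51 and 8.09 FPKM in Tet3-null, and was called lower in Tet3-null embryos (adjusted p = 0.00998, and 0.06615 without blastocyst replicate 1) but not in wild-type (0.0522), with an interaction at 0.708. Tuba3a and Tuba3b were not called in either genotype.

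Across both genotypes, 13 of the 28 genes that reached 1 FPKM in a library of each stage (46.4%) had all 4 2-cell libraries above all 4 blastocyst libraries, against 30.2% of the 9985 genes of that kind. The reverse held for 8 (28.6%), against 39.8%, and these were Asz1, Dmc1, Dpep3, Fkbp6, Hormad2, Mov10l1, Msh4 and Tex19.2. The upstream windows of the genes called lower in wild-type, of which 20 have one, held a median of 17.5 CpGs, and 10 of the 20 held CACGTG. Those of the 9 genes called higher held a median of 10 CpGs, and 2 of the 9 held CACGTG, Fkbp6 and Stag3. The lower group includes Ddx25, Msh5, Piwil1, Sycp2, Tdrd1, Tdrd9 and Tex14, which passed the filter through 2-cell libraries alone. The higher group includes Rec8, which passed it through blastocyst libraries alone. Windows of all tested genes called lower or higher were not counted. These are descriptions of small groups with no background and no test.

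Other genes of the same processes, listed from textbook knowledge, were read beside the set. Their stage counts stand against 35.8% of all tested genes higher and 38.4% lower in wild-type blastocysts, and genes that passed the filter through 1 stage alone are among them. Their genotype counts stand against 2.72% of all tested genes called in 2-cell embryos, with 0.613% higher, and 0.0664% called in blastocysts. Of 12 other piRNA pathway genes 10 were tested. None was called between genotypes at either stage, and 4 were higher and 5 lower in wild-type blastocysts than in 2-cell embryos (median -0.58). Of 30 other meiosis genes 29 were matched and 27 tested. None was called between genotypes at either stage, with a median of -0.32 in 2-cell embryos and 0.04 in blastocysts, and 5 were higher and 16 lower in wild-type blastocysts (median -1.33). Of 21 other germ-cell identity genes 18 were tested, and 3 were higher and 12 lower in wild-type blastocysts (median -1.10). Dppa3, a maternal protein that protects methylation in the zygote, was the 1 called between genotypes, at 16289 and 16957 FPKM in wild-type and 25556 and 23206 FPKM in Tet3-null 2-cell embryos (0.55, SE 0.10, limma adjusted p = 0.0471). Dppa3 was called in 2 of 7 other fits and, of 8 fits that left out a library, in the 1 without Tet3-null 2-cell replicate 1, with adjusted p from 0.0286 to 0.430.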

How the data were processed

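RNA-seq of 8 libraries (4 groups of 2) of pooled mouse embryos was analysed from the gene tables the authors deposited. Their values are FPKM, made by the authors on mm9. Per the submitters' processing notes the tools were Cufflinks 2.2.0, TopHat2 2.0.10 and Bowtie2 2.1.0. For the annotation, settings and handling of reads shared by gene copies, the sources used here give nothing. Per the labels' protocols, cDNA was amplified with a SMARTer low-input kit and the libraries do not mark strand.

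The FPKM were taken as log2(FPKM + 1) for the 13549 of 23234 genes that reached 1 FPKM in 2 or more libraries. One limma 3.58.1 fit in R 4.3.3 covered the 8 libraries, with a mean per group and a trend in the prior variance (residual degrees of freedom 4, prior 3.07). Two-sided tests were used, with Benjamini-Hochberg adjustment over all tested genes and calls at 0.05. All adjusted p-values are from this fit unless another is named. Differences on this scale understate changes of genes with low levels, and folds are ratios of mean FPKM. A permutation test of 2 against 2 libraries cannot reach 0.05 and was not used. The script was tested on simulated data.

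The genes and lists were chosen with earlier results of these data known. Values in every library are printed for genes called between genotypes or differing by at least 1 without overlap, for the 8 of highest mean level and for the 5 largest called stage changes in each direction. Other values printed were chosen after they were seen. Alternatives changed the pseudocount, filter, scaling, replicate block and libraries used. Windows came from RefSeq (GRCm38.p6) and exon overlaps from GENCODE M21, both of another build than the levels.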

Additional observations from a re-analysis of the deposited data

How the results depend on the processing

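Calls between genotypes in this set depended on the processing. The 1 call in 2-cell embryos became 2 with a pseudocount of 0.1 (Syce1 and Tex19.2) and 0 with the 2-cell libraries fitted alone, and ranged from 0 to 8 when single libraries were left out. It was 8 when Tet3-null replicate 1 was left out, 1 when replicate 2 of that group was, and 0 without any other library. The interaction had 0 calls, 1 with a filter of 5 FPKM (Tex19.2), and 0 to 4 with single libraries left out, 4 without Tet3-null 2-cell replicate 1 (Hormad1, Msh5, Piwil2 and Tex19.2). The fit behind those 4 calls had 1 library left in a group and called many genes outside the set too. The 4 calls therefore do not set germline genes apart. In blastocysts the count of calls in the set was 0 in every fit run. For the stage comparison, 26 of the 31 wild-type calls and 22 of the 30 Tet3-null calls were made in every fit that tested them, and all kept their direction. The replicate numbers are not stated to pair libraries, and deviations of same-numbered libraries correlated between -0.0756 and 0.0184. With the replicate number as a block, Tex19.2 stayed the 1 call (adjusted p = 0.0466), while the calls over all genes fell from 368 to 31. Over all genes the 2-cell calls were 243 with the smaller pseudocount, 288 without a filter, 325 with the stricter filter, 149 and 198 with median-of-ratios and quantile scaling, 6 with the 2-cell libraries alone and 10 to 3438 with single libraries left out. The cause of these differences was not tested. Read totals are unknown, so no limit can be set on a value listed at 0.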

Other observations

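Repressors known to act on germ-cell promoters, a list of 22 genes that were all tested, gave 1 call between genotypes, in 2-cell embryos. At that stage 2.72% of all tested genes were called and 0.613% were called higher. E2f6, the DNA-binding subunit of a repressor complex that silences meiosis genes in somatic cells, was listed at 0 and at 0.336 FPKM in wild-type 2-cell embryos and was at 1.46 and 3.08 FPKM in Tet3-null 2-cell embryos. The groups did not overlap (1.45 on the log2 scale, SE 0.28, limma adjusted p = 0.0481). E2f6 was called in 2 of 7 other fits and, of 8 fits that left out a library, in the 1 without Tet3-null 2-cell replicate 1 (adjusted p = 0.00637), and its adjusted p reached 0.324 over them. In blastocysts it was at 4.76 and 5.53 FPKM in wild-type and 6.11 and 5.40 FPKM in Tet3-null embryos, which overlap.

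Between stages 9 of the 22 repressor genes were higher and 6 lower in wild-type blastocysts, where 35.8% of all tested genes were higher and 38.4% lower. Dnmt3b, a methyltransferase that sets new methylation, rose from 4.34 ± 0.762 to 41.7 ± 6.12 FPKM (SD, n = 2; 3.0 on the log2 scale, limma adjusted p = 2.20e-05). Members of the same Polycomb-type complex moved in both directions. E2f6, Tfdp1 (from 18.1 ± 4.51 to 51.3 ± 0.314 FPKM) and Ring1 (from 0.310 ± 0.223 to 3.12 ± 0.160 FPKM) rose, and Pcgf6, Mga, Max, Rnf2 and Cbx3 fell, while L3mbtl2 was not called (13.9 ± 2.15 and 11.6 ± 1.15 FPKM). Pcgf6 fell from 73.3 ± 0.783 to 4.52 ± 0.437 FPKM (SD, n = 2; -3.75, adjusted p = 1.89e-06). Mga went from 16.7 and 17.4 to 8.75 and 7.59 FPKM and Max from 14.5 and 11.7 to 7.31 and 8.88 FPKM.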
